A study of Mus musculus with 2 samples.

Results

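The genes described here are 33 interferon-stimulated and antigen processing genes, chosen by name. Of these, 31 had at least 1 probe set annotated with their symbol alone, out of 12393 such genes on the array, with 41 probe sets in all. The series compares 2 pools of liver RNA, each on 1 Affymetrix array. They came from male apolipoprotein E-deficient mice on the C57BL/6J strain background, with a listed age of 2 months. The control pool came from animals kept for 11 weeks on a semipurified Western diet. The treated pool came from animals given, for 11 weeks, Western diet with 0.01% oleanolic acid, a plant triterpenoid, which amounts to 10 mg per kg per day. Both pools thus lacked apolipoprotein E, received the fat-rich diet and differed in the compound. The listed 2 months are less than the 11 weeks on diet, so they cannot be the age when the livers were taken. How many mice made up a pool is not given in the sources used here. Neither diet has a replicate, so no p-value is given and the differences are between these arrays only.

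Interferons are secreted when cells sense viral or microbial nucleic acid, or when T and NK cells are activated. Type I interferons act through the receptor chains IFNAR1 and IFNAR2 and a complex that holds STAT2 and IRF9, which binds the interferon-stimulated response element (ISRE) of antiviral genes. Interferon-gamma acts through IFNGR1 and IFNGR2 and the gamma-activated site (GAS) of its target genes, and drives IRF1, guanylate-binding proteins, immunity-related GTPases and the machinery that loads peptides on MHC class I. In liver, hepatocytes, Kupffer cells and sinusoidal endothelium all respond to both. The members were split by their usual main inducer into 21 type I and 12 interferon-gamma genes. Of these, 12 are textbook responders to both kinds of interferon, and the split is one of degree for others too.

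Of 26 members with a promoter sequence, 3 carry the letters of both elements, and the others carry a single element or neither. The promoters of 7 members are shown, among which Igtp alone carries both. These 7 span both classes, the highest and lowest log2 ratios of the measured members and a chemokine pair whose ratios differed. The sequences come from RefSeq on GRCm38.p6 and run 5′ to 3′ along the gene over the 220 bases before its first listed start. Capitals mark ISRE letters, GAAANNGAAA on either strand, or GAS letters, TTCNNNGAA, which read the same on both strands.
Ifit1, chr19:34640669-34640888, plus strand: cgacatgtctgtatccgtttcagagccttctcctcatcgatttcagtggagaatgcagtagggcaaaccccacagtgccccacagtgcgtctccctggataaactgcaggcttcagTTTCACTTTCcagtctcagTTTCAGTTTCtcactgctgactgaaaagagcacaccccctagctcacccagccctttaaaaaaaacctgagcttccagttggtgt
Rsad2, chr12:26456453-26456672, minus strand: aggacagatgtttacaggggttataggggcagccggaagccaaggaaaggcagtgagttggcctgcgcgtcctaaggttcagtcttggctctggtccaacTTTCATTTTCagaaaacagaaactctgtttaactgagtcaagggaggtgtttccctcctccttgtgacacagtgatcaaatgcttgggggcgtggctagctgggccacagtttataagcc
Igtp, chr11:58199336-58199555, plus strand: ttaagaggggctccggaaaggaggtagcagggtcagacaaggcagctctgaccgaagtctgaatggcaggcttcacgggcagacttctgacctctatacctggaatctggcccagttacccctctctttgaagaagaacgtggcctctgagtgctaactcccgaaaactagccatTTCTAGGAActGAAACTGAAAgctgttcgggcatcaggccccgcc
Gbp2, chr3:142620443-142620662, plus strand: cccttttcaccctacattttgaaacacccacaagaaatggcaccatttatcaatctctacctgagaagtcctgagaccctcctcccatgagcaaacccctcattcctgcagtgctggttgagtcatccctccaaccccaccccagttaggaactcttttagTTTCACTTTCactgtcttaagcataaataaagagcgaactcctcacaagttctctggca
Irf1, chr11:53769794-53770013, plus strand: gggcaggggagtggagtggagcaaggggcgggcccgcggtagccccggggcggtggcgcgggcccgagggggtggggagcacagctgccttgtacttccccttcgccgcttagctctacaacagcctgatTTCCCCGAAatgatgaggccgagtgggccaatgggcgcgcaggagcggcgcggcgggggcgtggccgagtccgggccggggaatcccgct
Cxcl10, chr5:92348890-92349109, minus strand: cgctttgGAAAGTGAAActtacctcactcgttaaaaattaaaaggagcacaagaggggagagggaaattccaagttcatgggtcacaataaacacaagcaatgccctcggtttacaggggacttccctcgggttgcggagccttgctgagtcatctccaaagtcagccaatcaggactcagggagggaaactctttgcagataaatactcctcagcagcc
Cxcl9, chr5:92328080-92328299, minus strand: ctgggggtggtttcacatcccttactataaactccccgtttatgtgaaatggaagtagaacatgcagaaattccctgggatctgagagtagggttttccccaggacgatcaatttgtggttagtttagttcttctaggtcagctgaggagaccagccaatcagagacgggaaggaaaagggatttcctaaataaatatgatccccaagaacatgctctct
Ifit1 holds an ISRE match from base 104 to 95 and a second from 85 to 76 before the start. Igtp holds a GAS match from base 45 to 37 and an ISRE match from 34 to 25. The capitals of Irf1 are a GAS match, those of Rsad2, Gbp2 and Cxcl10 ISRE matches, and the Cxcl9 window shown holds neither.

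Promoter windows were found for 26 of the 33 members, and Gbp6, Iigp1, Mx1, Mx2, Oas2, Tap2 and Usp18 had no entry. Within 250 bases before the start, 12 of the 32 member windows held an ISRE match, 37.5% against 2.98% of 32851 windows of all genes. A GAS match was in 6 of the 32, 18.8% against 7.02% of all windows. An ISRE match was found for 7 of 17 type I genes (Bst2, Ifit1, Ifit3, Isg15, Oas1a, Rsad2 and Stat2) and for 5 of 9 interferon-gamma genes (Cxcl10, Gbp2, Gbp3, Igtp and Irgm1). A GAS match was found for Bst2, Eif2ak2, Ifit2 and Oas1a in the first class and for Igtp and Irf1 in the second. In Bst2 a GAS match overlaps an ISRE match, and Bst2, Oas1a and Igtp hold both. The matches are letters in a window and do not show binding. The 11 measured genes with an ISRE match had a median log2 ratio of 0.06, with a range of -0.53 to 0.26, and the 13 without one had a median of -0.07, with a range of -0.60 to 0.10. The ranges of genes with and without the match overlapped over most of their width.

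The members as a group lay close to 0. A gene was called measured when the higher signal of a probe set reached the median of its array (61.5 intensity units for the control and 59.3 for oleanolic acid), which 29 members and 34 of their probe sets did. The log2 ratio of a gene is oleanolic acid over control, averaged over its measured probe sets. The error is the probe set SD, which is the SD between the probe sets of a gene or, for a gene with 1 measured probe set, the pooled SD of genes of like signal (0.27, 0.25, 0.17 and 0.13 in 4 bands of rising signal), and it covers no variation between mice. The median of the 29 members was -0.0039, with 14 above 0 and 15 below, and that of all 7137 measured genes was 0.0012. The median absolute log2 ratio was 0.13 for the members and 0.13 for all genes, and 22 of the 29 members lay within 0.2 of 0, against 68.2% of all genes. Of the other 7 members 6 were lower and 1 was higher in the oleanolic acid array, while of all genes past 0.2 there were 1220 lower and 1050 higher.

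None of the 29 members passed the submitters' size of a log2 ratio above 1.5 or below -1.5, and none passed 1. Of all measured genes, 0.392% were past 1.5 in either direction and 1.02% past 1. At the smaller size of 0.5, no member was higher in the oleanolic acid array, where 2.63% of all genes were, and Cxcl9 and Gbp2 were lower, where 3.24% of all genes were. These 2 were also the members more than 2 probe set SDs of their signal band from 0, which 9.07% of all genes were. Counts of 0 or 2 among 29 members are near these shares.

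**Figure D1:**
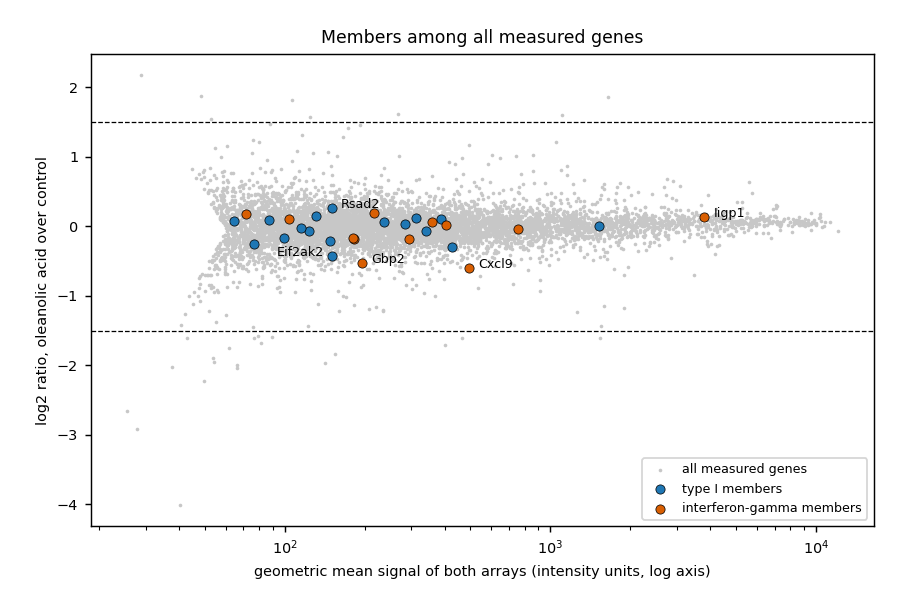
Log2 ratio (oleanolic acid over control) against the geometric mean signal of both arrays (intensity units, log axis) for the 7137 measured genes, with 17 type I members in blue and 12 interferon-gamma members in orange. The members sit inside the cloud of all genes between -0.60 and 0.26, and none reaches the dashed lines at 1.5 and -1.5.

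Neither class stood away from 0 in its median. The 17 measured type I members had a median log2 ratio of -0.0039 (SD over genes 0.18), with 8 above 0 and 9 below. The 12 interferon-gamma members had a median of -0.01 (SD over genes 0.26), with 6 above 0 and 6 below. The type I median was higher by 0.0079, and the ranges of the classes overlapped over most of their width. The sign of this difference turned once the arrays were quantile normalized (-0.0052) or centred by intensity (-0.02). The spread was wider among the interferon-gamma members, which include Cxcl9 and Gbp2. Without the 12 responders to both interferons, the median was 0.02 for 12 type I genes and -0.05 for 5 interferon-gamma genes.

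**Figure D2:**
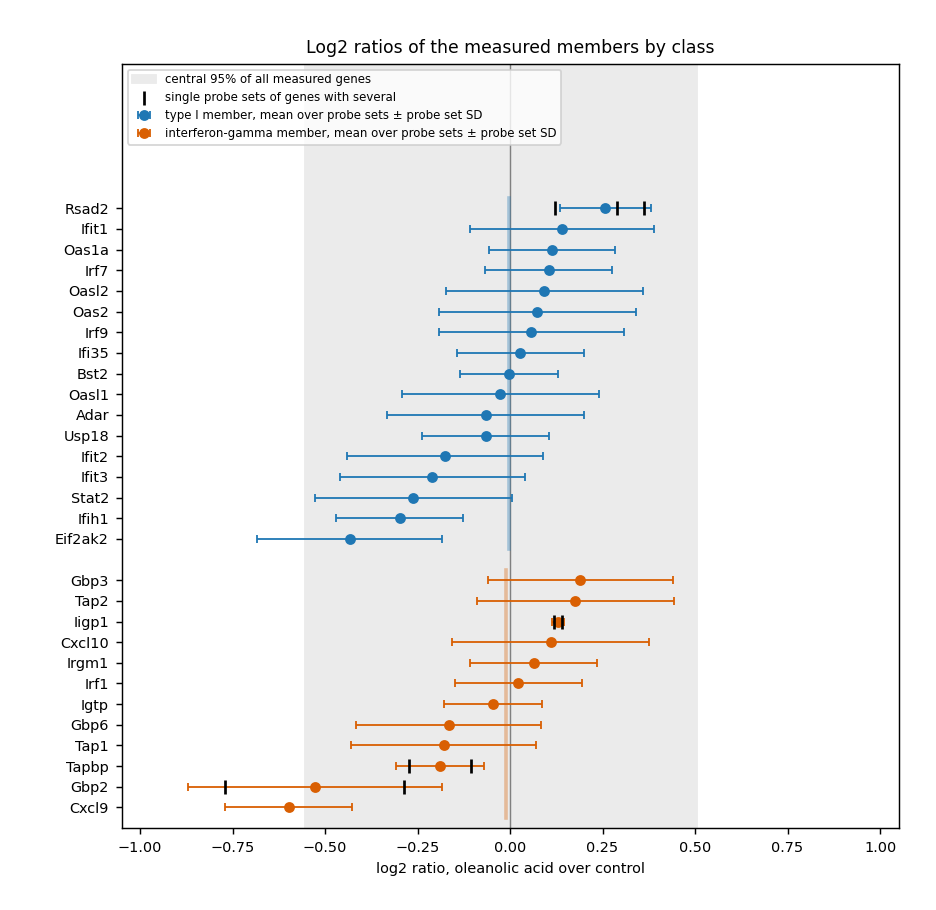
Log2 ratio (oleanolic acid over control) of each of the 29 measured members, sorted within class, with the probe set SD as error bars, black ticks for the probe sets of genes with several, and class medians as pale vertical lines. Type I members run from -0.43 to 0.26 and interferon-gamma members from -0.60 to 0.19, and grey marks the central 95% of all measured genes, -0.56 to 0.51.

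Among the transcription factors of the pathway, the values were small. Irf7, which amplifies type I interferon production, gave 373 intensity units under the control diet and 401 with oleanolic acid (log2 ratio 0.10, probe set SD 0.17). Irf9, the DNA-binding partner of STAT2, had signals of 233 and 242 (log2 ratio 0.06). Irf1, an early target of interferon-gamma, had signals of 401 and 407 (log2 ratio 0.02). Each of these 3 lay within its probe set SD of 0. Stat2, the partner of IRF9, gave opposite signs in its 2 probe sets. The brighter one had signals of 83.9 and 70.0 (log2 ratio -0.26), and the other, below the array median on both arrays, had signals of 40.4 and 55.8 (0.47). No direction can be read for Stat2, which was at 0.10 with both probe sets averaged.

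The IFIT and OAS families, which bind or respond to foreign RNA, also gave ratios near 0. Ifit1 had signals of 125 and 138 (log2 ratio 0.14), Ifit2 of 105 and 93.3 (-0.18) and Ifit3 of 159 and 138 (-0.21), each within its probe set SD of 0.27 or 0.25. Ifit2 and Ifit3, which are neighbours in the genome, were both below 0, and Ifit1 was above. The OAS proteins make the oligoadenylate that activates RNase L, which not all of their OASL relatives can do. Oas1a had signals of 301 and 325 (log2 ratio 0.11) and Oas2 of 63.0 and 66.3 (0.07). Oasl1 had signals of 116 and 114 (-0.03) and Oasl2 of 84.2 and 89.8 (0.09). The 4 OAS genes spanned the narrowest range of the families with 3 or more measured members, from -0.03 to 0.11. Oas and Ifit genes have close paralogs, and cross-hybridization between them was not tested.

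The 3 members grouped under RNA sensing and editing, Eif2ak2, Ifih1 and Adar, had values below 0, as did 3547 of all 7137 measured genes. The OAS genes given above were not part of this group. Eif2ak2, the kinase PKR that halts translation on viral RNA, had the lowest value of the measured type I members. It gave 176 units under the control diet and 130 with oleanolic acid (log2 ratio -0.43, probe set SD 0.25). Its dimmer probe set, with signals of 37.9 and 32.2, lay in the same direction at -0.24. Ifih1, a cytoplasmic sensor of long double-stranded RNA, gave 472 and 384 units, which is -0.30 as a log2 ratio (probe set SD 0.17). Adar, which converts adenosine to inosine in double-stranded RNA, gave 126 and 120 units (-0.07 as a log2 ratio, probe set SD 0.27). Eif2ak2 and Ifih1 lay between 1 and 2 probe set SDs below 0, and neither reached 0.5. Adar lay within its probe set SD of 0.

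Rsad2 was the highest measured member, and its 3 probe sets shared a sign. It encodes viperin, an enzyme of the endoplasmic reticulum and lipid droplet surface that blocks viral replication. Its signals were 310 and 398, 115 and 140, and 74.3 and 80.8, control first, and the log2 ratios 0.36, 0.29 and 0.12. The gene value was 0.26 ± 0.12 (SD, n = 3 probe sets), 1.20-fold, with the brighter probe sets giving the larger ratios. Bst2, the tethering protein that holds budding virus at the membrane, had nearly equal signals, 1523 and 1519 (a log2 ratio of -0.0039 with a probe set SD of 0.13). Ifi35 had signals of 282 and 287 (0.03) and Usp18, a protease that removes ISG15 and damps signalling of the type I receptor, of 348 and 333 (-0.07). Those 3 genes lay within their probe set SD of 0.

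The remaining 4 type I members did not enter the gene values. Mx1 and Mx2 encode dynamin-like antiviral GTPases, and Mx1 is defective in C57BL/6J and many other inbred strains. The Mx1 probe set gave 37.9 and 22.7 units, below the median of each array but above the floor, which is -0.74 as a log2 ratio. That of Mx2 had signals of 3.8 and 10.0, at or below the floor on both arrays, the 25th percentile of each (10.7 and 10.1). The only probe set of Isg15 carries a second symbol, and Ifi44 matched no probe set, so neither was analysed here.

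**Figure D3:**
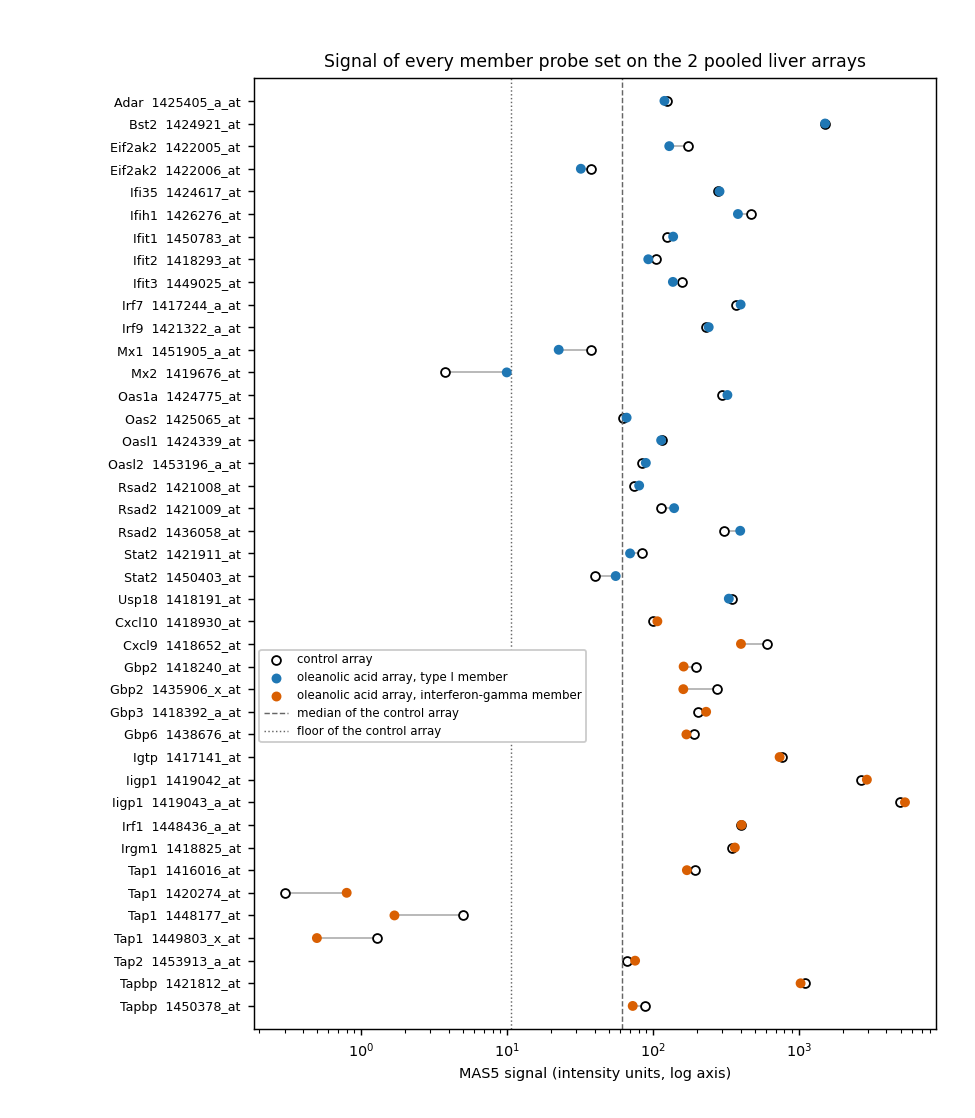
MAS5 signal (intensity units, log axis) of each of the 41 member probe sets in the control array (open circles) and in the oleanolic acid array (filled, blue for type I and orange for interferon-gamma members). Most pairs nearly coincide, the widest gap among measured probe sets is that of the _x_at probe set of Gbp2 (277 and 162), and the probe sets left of the dashed median on both arrays were not counted as measured.

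Among the interferon-gamma members, the chemokines of the receptor CXCR3 differed from each other. Cxcl9, which draws activated T and NK cells, gave 610.0 units under the control diet and 403 with oleanolic acid, 1.51-fold lower (log2 ratio -0.60, probe set SD 0.17). It was the lowest of the 29 measured members. Cxcl10, which binds the same receptor and lies close to Cxcl9 in the genome, gave 99.8 and 108 units (0.11 as a log2 ratio, probe set SD 0.27). The third ligand of this receptor, Cxcl11, taken from the wider list, had signals of 71.1 and 50.4 (-0.50, probe set SD 0.27), and its second probe set was at or below the floor on both arrays. Cxcl11 was at -0.26 with the floor at the array median and at -0.29 with all probe sets counted, and it was not measured where both signals had to reach the median. Cxcl10 lay within its probe set SD of 0, so whether the 3 ligands shared a direction cannot be read.

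Markers of T and NK cells, a list of 12, were mostly dim on both arrays. Of 10 with a probe set, 2 were measured (Klrd1 at 0.19 and Ms4a4b at -0.85), Cd4 and Cd8a were at or below the floor on both, and their summed signal, over the brightest probe set of each, was 311 for the control and 236 for oleanolic acid. Kupffer cell and macrophage markers had a summed signal of 17158 and 16100, with a median of -0.13 over the measured markers. Of 11 measured, 10 were below 0, as were 3547 of all 7137 measured genes. Most lay within their probe set SD of 0, with Marco (-0.67, probe set SD 0.25) lowest and C1qc (0.11) above 0. B and plasma cell markers, 3 of 6 measured and Cd79a at or below the floor on both arrays, summed to 1138 and 311. Of the 3 measured, Ighm (-1.97, probe set SD 1.31) and Jchain (-1.61) were below 0 and Cd22 (0.13) was above. Exocrine pancreas markers summed to 890 and 264, with 7 of 7 below 0. Neutrophil markers went the other way, at 332 and 394.5, with 2 of 7 measured, both above 0, and Camp and Elane at or below the floor on both arrays. Hepatocyte markers summed to 82242 and 82764, as the liver label says, with 3 of 9 measured below 0 and Tat lowest (-0.70, probe set SD 0.13). Sinusoidal endothelial markers summed to 3649 and 3688, with 1 of 8 below 0, Kdr (-0.32, probe set SD 0.17). Stellate cell markers summed to 6257 and 6267, with 3 of 6 measured below 0 and Lrat highest (0.66, probe set SD 0.27). Of 6 dendritic cell markers with a probe set, none was measured. The part of these cell types in the values of Cxcl9, Gbp2 or other members was not tested, and in pooled tissue fewer cells of a type and less RNA per cell cannot be told apart.

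The guanylate-binding proteins, large GTPases that coat and break vacuoles of intracellular microbes, ran from the second lowest measured member to the second highest. Gbp2 had signals of 199 and 163 in one probe set (log2 ratio -0.29) and of 277 and 162 in the other (-0.77), a mean of -0.53 ± 0.34 (SD, n = 2 probe sets), 1.44-fold lower. The second is an _x_at probe set, whose probes can match other transcripts, and without it Gbp2 was at -0.29 and inside 0.5. Gbp3 gave 204 and 233 units (0.19 as a log2 ratio, probe set SD 0.25) and Gbp6 of 191 and 170 (-0.17, probe set SD 0.25). Both probe sets of Gbp2 were lower in the oleanolic acid array, while Gbp3 and Gbp6 lay within their error of 0.

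Other genes of the same family, 2 of them from the wider list and Gbp2b named after its values were seen, were dimmer with oleanolic acid. Gbp7 was at -0.48 ± 0.13 (SD, n = 2 probe sets), Gbp8 signals of 112 and 70.9 (-0.66) and Gbp2b, the neighbour of Gbp2, signals of 97.0 and 63.0 (-0.62). Of the 6 measured guanylate-binding protein genes 5 were below 0, as were 3547 of all 7137 measured genes. Gbp3 was above 0, Gbp6 (-0.17) lay within its probe set SD of 0.25, and the median of the 6 was -0.50. The family was looked at because of these values, so the count is a description. The genes are close in sequence, and cross-hybridization between them was not tested.

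The immunity-related GTPases, smaller GTPases that act on the same vacuoles, did not share the low values of Gbp2. Iigp1 had signals of 2665 and 2937.5 in one probe set and 4937 and 5359 in the other. Its gene value was 0.13 ± 0.02 (SD, n = 2 probe sets), within the pooled SD of 0.13 for genes of like signal. It was at 0.09 with quantile normalization and at 0.09 when centred by intensity. Irgm1, a regulator that keeps the effector GTPases inactive on host membranes, had signals of 350 and 366 (0.06, probe set SD 0.17). Igtp, a second regulator of that kind, had signals of 765 and 741 (-0.05, probe set SD 0.13). With Irgm2 and Ifi47 from the wider list, 4 of 5 measured genes of this family lay above 0, as did 3583 of all 7137 measured genes. Their median was 0.13, and they lay between -0.05 and 0.17. The difference between the GTPase families was noticed in these arrays and has no replicate.

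Peptide loading genes had values within 0.2 of 0. Tap1 and Tap2 form the pump that carries peptides into the endoplasmic reticulum, and Tapbp, tapasin, links it to MHC class I. The measured Tap1 probe set gave 194 and 172 units (-0.18 as a log2 ratio, probe set SD 0.25), while its 3 other probe sets lay between 0.3 and 5.0 units on both arrays and were not used. Tap2 had signals of 67.1 and 75.8 (0.18, probe set SD 0.27), which are close to the array medians. Tapbp had signals of 1110 and 1032 in one probe set and 88.2 and 73.0 in the other, with a gene value of -0.19 ± 0.12 (SD, n = 2 probe sets). Tap1 and Tap2 thus had opposite signs, each within its error of 0, and both Tapbp probe sets were lower in the oleanolic acid array.

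Upstream of the members, the list of ligands and receptors had 5 measured genes of 14 with a probe set, and none of them was an interferon gene. Ifnar1 was at 0.19, Ifngr1 at -0.03 and Ifngr2 at 0.03, each within its probe set SD of 0.25. The second probe set of Ifngr2 was below the array median (57.7 and 20.7), and counting all probe sets put Ifngr2 at -0.73. Ifnar2 had signals of 1468 and 1671 in its bright probe set (log2 ratio 0.19) and of 41.2 and 71.8 in its dim one (0.80), so its gene value of 0.49 ± 0.43 (SD, n = 2 probe sets) rests on the dim one. The receptor chains with bright probe sets were thus within 0.2 of 0.

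The signalling list, which holds kinases, STATs, regulators and nucleic acid sensors, had a median of -0.03 over 20 measured genes. Of these, 9 were above 0 and 11 below, and 1 was above 0.5, where 2.63% of all genes were. That gene was Socs3, a feedback inhibitor induced mainly by interleukin signalling through STAT3. Its signals were 69.5 and 111, 220 and 378, and 124 and 157 in 3 probe sets, and the gene value was 0.60 ± 0.23 (SD, n = 3 probe sets), 1.51-fold. All 3 of its probe sets were higher in the oleanolic acid array. Socs1, the inhibitor more closely tied to interferon-gamma, was dim, with signals of 15.6 and 11.0. The kinases Jak1 (0.03), Jak2 (-0.20) and Tyk2 (-0.32) and the factors Irf3 (0.22, and 0.08 with all probe sets counted or 0.12 with the brightest alone) and Irf8 (-0.26) lay within 0.5. Irf2bp1 (0.47), Ikbke (-0.38) and Irf5 (0.34, and -0.24 with all probe sets counted) had the next largest values in the list.

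Of 34 measured genes in a list of 61 other interferon-stimulated genes, 1 was above 0.5, where 2.63% of all genes were. Another 2 were below -0.5, where 3.24% of all genes were. The other 31 lay between, and the list median was -0.08. The gene above was Cmpk2, a mitochondrial nucleotide kinase, at 72.4 and 118 units (0.70 as a log2 ratio, probe set SD 0.27), or 0.32 with its dim probe set counted. The genes below were Gbp8 and Ccl5, a T cell and macrophage chemokine, with signals of 242 and 120 (-1.01, probe set SD 0.25). Casp1, the inflammasome protease, was at -0.48. Ccl5, read from 1 probe set, was the only gene of the 4 further lists past 1, where 1.02% of all genes were. It fell short of 1 with 16 added to each signal (-0.93) and with quantile normalization (-0.998).

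The 14 measured genes of the other antigen processing list lay within 0.5 of 0, as did 94.1% of all genes. Their median was -0.00094, with 7 above 0 and 7 below. B2m, the light chain of MHC class I, was at 0.04 ± 0.02 (SD, n = 2 probe sets), where genes of like signal had a pooled SD of 0.13. Its sign turned with quantile normalization (-0.0045) or when centred by intensity (-0.02). The heavy chains H2-K1 (0.01 ± 0.08, SD, n = 4 probe sets) and H2-D1 (0.09 ± 0.17, SD, n = 5 probe sets) were also near 0, and their probe sets can share sequence with related class I genes. Their signs turned too. H2-K1 was at -0.03 with quantile normalization and at -0.02 when centred by intensity. Without _x_at and _s_at probe sets H2-D1 was at -0.08, and H2-K1 had no probe set left. The immunoproteasome genes Psmb8 (-0.19), Psmb9 (-0.24) and Psmb10 (-0.01) and the proteasome activator Psme1 (-0.11) had values below 0, of which Psmb8 and Psmb9 lay just beyond their probe set SD of 0.17. Erap1, which trims peptides in the endoplasmic reticulum, was lowest at -0.42 (probe set SD 0.17), and H2-M3 was at -0.38 and Tapbpl at -0.20. Psme2 had no probe set with its symbol alone and was not analysed here.

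**Figure D4:**
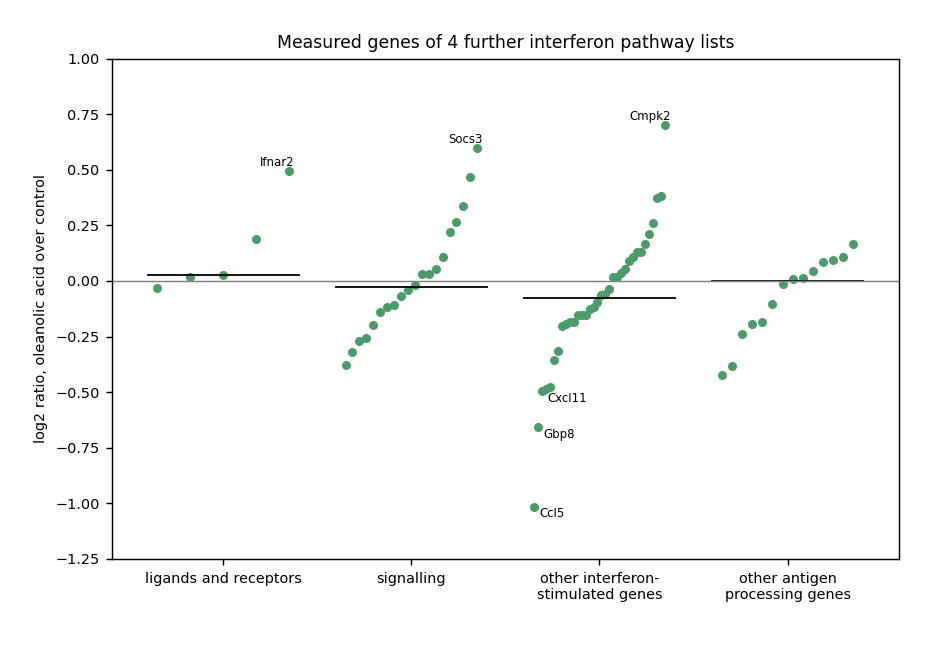
Log2 ratio (oleanolic acid over control) of the measured genes of 4 further interferon pathway lists, sorted within each list, with black lines for the list medians of 0.03, -0.03, -0.08 and -0.00094 from left to right. Genes near or past 0.5 carry their names, and Ccl5 at -1.01 lies farthest from 0.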

How the data were processed

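Liver RNA of 1 pool per diet was measured on 2 Affymetrix arrays. The authors deposited linear intensities per probe set, and the submitters' processing notes name MAS5 without a version. Both arrays had the same mean, 300.1, after trimming 2% at each end, so they were not scaled again. Detection calls were not used here. Of 22690 probe sets, 64 were Affymetrix controls, 20380 carried 1 gene symbol in the platform annotation, 691 several and 1555 none, and only those with 1 were used.

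A floor was set at the 25th percentile of the array before signals were converted to log2 ratios in Python 3.11.15 with pandas 2.3.3. The pooled SD between probe sets, over the 2427 genes that had 2 or more measured, was 0.20 in log2 units. Groups came from the array titles, since the growth protocol of both samples names oleanolic acid. The number of arrays limits the precision.

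The members, classes and lists were chosen with earlier results of these data known. Of each wider list, the 5 genes with the largest absolute log2 ratio and a set of pathway genes were named, and the rest are marked or counted. Some items are not reported here. The procedure was tested on simulated data. The alternatives tried were a floor at the array median, 16 added in place of a floor, other filters on dim probe sets, quantile, loess (statsmodels 0.14.6) and median centring, fewer probe sets per gene, and leaving out members that respond to both interferons.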

Additional observations from a re-analysis of the deposited data

How the results depend on the processing

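Over the 10 alternatives, the type I median lay between -0.0098 and 0.02, the interferon-gamma median between -0.05 and 0.0085 and their difference between -0.02 and 0.07, so none of these has a settled sign. Over the 9 that bear on the further lists, the median lay between -0.08 and 0.05 for ligands and receptors (below 0 with all probe sets counted), between -0.06 and 0.0074 for signalling, between -0.09 and -0.06 for other interferon-stimulated genes and between -0.08 and 0.0016 for other antigen processing genes. No member passed 1 in either direction under the 9 alternatives that change the values. The number of members below -0.5 was 1 with 16 added to each signal and 1 without _x_at and _s_at probe sets, where Gbp2 was at -0.49 and -0.29, and 3 with all probe sets counted, the third being Mx1. Cxcl9 stayed between -0.60 and -0.57. Over all genes, counting all probe sets put 452 genes above 0.5, 691 below -0.5, 64 above 1, 122 below -1 and 34 below -1.5. Requiring both signals at the median left 145 below -0.5, 18 above 1, 18 below -1, 5 above 1.5 and 5 below -1.5. The floor at the median gave 18 above 1, 25 below -1, 5 above 1.5 and 5 below -1.5, and 16 added gave 18 above 1, 4 above 1.5 and 11 below -1.5. The main counts were 188, 231, 28, 45, 8 and 20 in the order 0.5, 1 and 1.5, higher then lower. No paired analysis was possible because each diet has 1 array. Dim members such as Oas2, Tap2 and Stat2 lie near the array median, and with no detection call used their level over background is unknown.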

Other observations

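Neighbouring genes of the interferon lists, in the RefSeq order of protein-coding genes, gave values that were alike in some stretches and not in others. Rsad2 (0.26) lies beside Cmpk2 (0.70), and both were the highest of their lists. Psmb9 (-0.24), Tap1 (-0.18), Psmb8 (-0.19) and Tap2 (0.18) follow each other, with the sign of Tap2 opposite to the rest. Igtp (-0.05) lies beside Irgm2 (0.13), and Gbp7 (-0.48) beside Gbp3 (0.19). These pairs were looked at after the values were seen, and neighbouring genes of 1 family can share probe sequence.

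Lgals9, a galectin induced by interferon-gamma, gave 1532 and 1994 units (0.38 as a log2 ratio, probe set SD 0.13), and Ifi30, a lysosomal thiol reductase of antigen presenting cells, had signals of 755 and 607 (-0.32, probe set SD 0.13). Both were named after their values were seen.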
